A study of Rattus norvegicus with 6 samples.

Results

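The genes described here encode general parts of the pre-mRNA splicing machinery, measured in the brain of newborn rats from calorically restricted and control dams. They were chosen by symbol: every row whose name begins with Srsf, Hnrnp, Sf3a, Sf3b, Snrp or U2af was taken, except Srsf1, Srsf3, Hnrnpf, Hnrnpa1, Hnrnph1, Snrpn and names containing -ps. A mean of at least 0.5 FPKM (fragments scaled by exon length and by assigned reads) over the 6 libraries was also required. Of 30498 genes in the tables, 57 had such a prefix, 6 of them were left out by name and 0 contained -ps. The limit on the mean removed 1 further gene, Srsf8, which was at 0 in every library. The remaining 50 genes all passed the filter used for testing. The members nearest above the limit were U2af1l4 at a mean of 0.901 FPKM and Snrpd2l at 2.07 FPKM. They comprised 9 genes of SR proteins (Srsf), 15 of hnRNP proteins (Hnrnp), 9 of the SF3A and SF3B complexes, 3 of U2AF and 14 of Sm and snRNP proteins (Snrp).

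Splicing removes introns from pre-mRNA and is carried out by the spliceosome, which is built from small nuclear ribonucleoproteins (snRNPs). In most of these a small nuclear RNA is held by a ring of Sm proteins. The U2AF heterodimer reads the 3' splice site and the SF3A and SF3B complexes anchor the U2 snRNP at the branch point. SR proteins, which carry a domain rich in arginine and serine, and hnRNP proteins, a varied group of nuclear RNA-binding proteins, bind exons and introns and shift the choice of splice sites. Neural progenitors and neurons use many alternative exons, and several SR and hnRNP genes limit their own mRNA through alternative exons that lead to its decay.

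Both groups were brains of Rattus norvegicus taken at birth by Caesarean section, a model of fetal growth restriction. In the CR group (3 libraries) the dams were under caloric restriction and in the control group (3 libraries) they were not. The degree and timing of the restriction and the sex of the pups are not stated in the labels. Nothing says that the 3 libraries of a group are different animals, so a p-value reflects library-to-library spread, part of which may be technical. Depth was 14030961 to 25345354 assigned reads in control and 22161522 to 25734737 in CR, and 46 of the 50 genes had at least 500 reads in every library.

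All libraries are labelled as whole brain, and markers of its regions differed between the groups. Neuron markers (6 of 6 measured) summed to 2897 to 3254 FPKM in control libraries and 2956 to 3022 FPKM in CR libraries. Within that sum 3 genes were lower and 2 higher in every CR library. Over all genes tested, 24.3% were lower in every CR library than in any control library. The 10 dorsal telencephalic markers summed to 407 to 538 FPKM in control libraries and 162 to 253 FPKM in CR libraries, with 9 of 10 genes lower in every CR library, and the 10 ventral telencephalic markers to 132 to 168 and 91.2 to 99.2, with 8 of 10 lower and 1 higher in every CR library. In contrast, 7 midbrain markers summed to 0.631 to 1.12 FPKM in control libraries and 21.7 to 28.1 FPKM in CR libraries, and 8 hindbrain markers to 0.315 to 0.411 and 11.0 to 47.1. In a gene with 1 kb of exon, 3 reads come to 0.117 to 0.214 FPKM, so the defining midbrain and hindbrain markers were near that floor in control. Thalamic (4 genes, 3.23 to 19.5 and 74.3 to 109.6 FPKM), hypothalamic (8 genes, 7.38 to 8.40 and 45.3 to 65.8) and cerebellar markers (7 genes, 32.4 to 48.3 and 83.8 to 102) were also higher in CR. Markers of dividing progenitors, 11 genes, summed to 340.0 to 372 FPKM in control libraries and 336 to 382 FPKM in CR libraries, with 4 genes past the limma threshold as lower and 1 as higher. Over all genes tested, 16.2% passed it as lower and 17.7% as higher. Among other cell types, astrocyte (5 genes, 67.3 to 88.0 and 127 to 147 FPKM), oligodendrocyte lineage (5 genes, 37.7 to 42.8 and 48.6 to 54.5), microglial (5 genes, 15.4 to 20.4 and 25.7 to 29.7) and choroid plexus and meningeal markers (5 genes, 124 to 302 and 434 to 487) did not overlap between the groups. Endothelial (2 of 4 listed genes measured, 5.999 to 6.45 and 6.17 to 8.48 FPKM) and red blood cell markers (2 of 5, 3.76 to 6.47 and 4.43 to 11.7) overlapped. A liver list of 4 genes (1154 to 2759 and 2173 to 2738 FPKM) consisted almost wholly of Ttr, which the choroid plexus also makes. These shifts accompany every difference below. Their part in the differences was not tested, feeding and regional makeup cannot be told apart in these libraries, and in whole-tissue RNA fewer cells of a type and less RNA per cell cannot be told apart either.

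The comparison of CR with control asked which splicing genes differed in the growth-restricted brain. Of the 50 genes, 24 were lower in CR past a limma adjusted p of 0.05, 0 were higher and 26 did not pass. Over all 15247 genes tested, 33.9% passed, 16.2% as lower and 17.7% as higher, so 48% of these genes were lower against a background of 16.2%. The median log2 fold change was -0.18 over the 50 genes and 0.01 over all genes tested, and 44 of the 50 had a negative value. The decreases were small: among the 24 they ran from -0.49 for Hnrnpll to -0.13 for Sf3b1, with a median of -0.26. In 28 of the 50 genes all 3 CR values lay below all 3 control values, against 24.3% of all genes tested. In 1 gene, Srsf5, they lay above, a direction for which the share over all genes was not counted.

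Most of these genes are abundant, so genes averaging 20 FPKM or more are a closer background, a choice made after the values were seen. Of 3645 such genes 19.6% were lower and 24.3% higher, and of the 42 members at that level 24 were lower (57.1%). The count of 0 higher genes compares with 1 at an unadjusted p under 0.05 in limma, Srsf5, and with 1 by limma-voom on the reads, again Srsf5; the corresponding counts of lower genes were 28 and 27. Without CR replicate 2 the count of lower genes was 15, and without CR replicate 3 it was also 15. Across 12 alternative settings 14 of the 24 kept their call: Srsf7, Srsf10, Srsf11, Hnrnpc, Hnrnph3, Hnrnpl, Hnrnpll, Hnrnpm, Sf3a1, Sf3b3, U2af1, Snrpa, Snrpd1 and Snrpf. CR replicate 2 held the lowest of the 6 values in 24 genes, CR replicate 3 in 14 and control replicate 3 in 6.

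**Figure D1:**
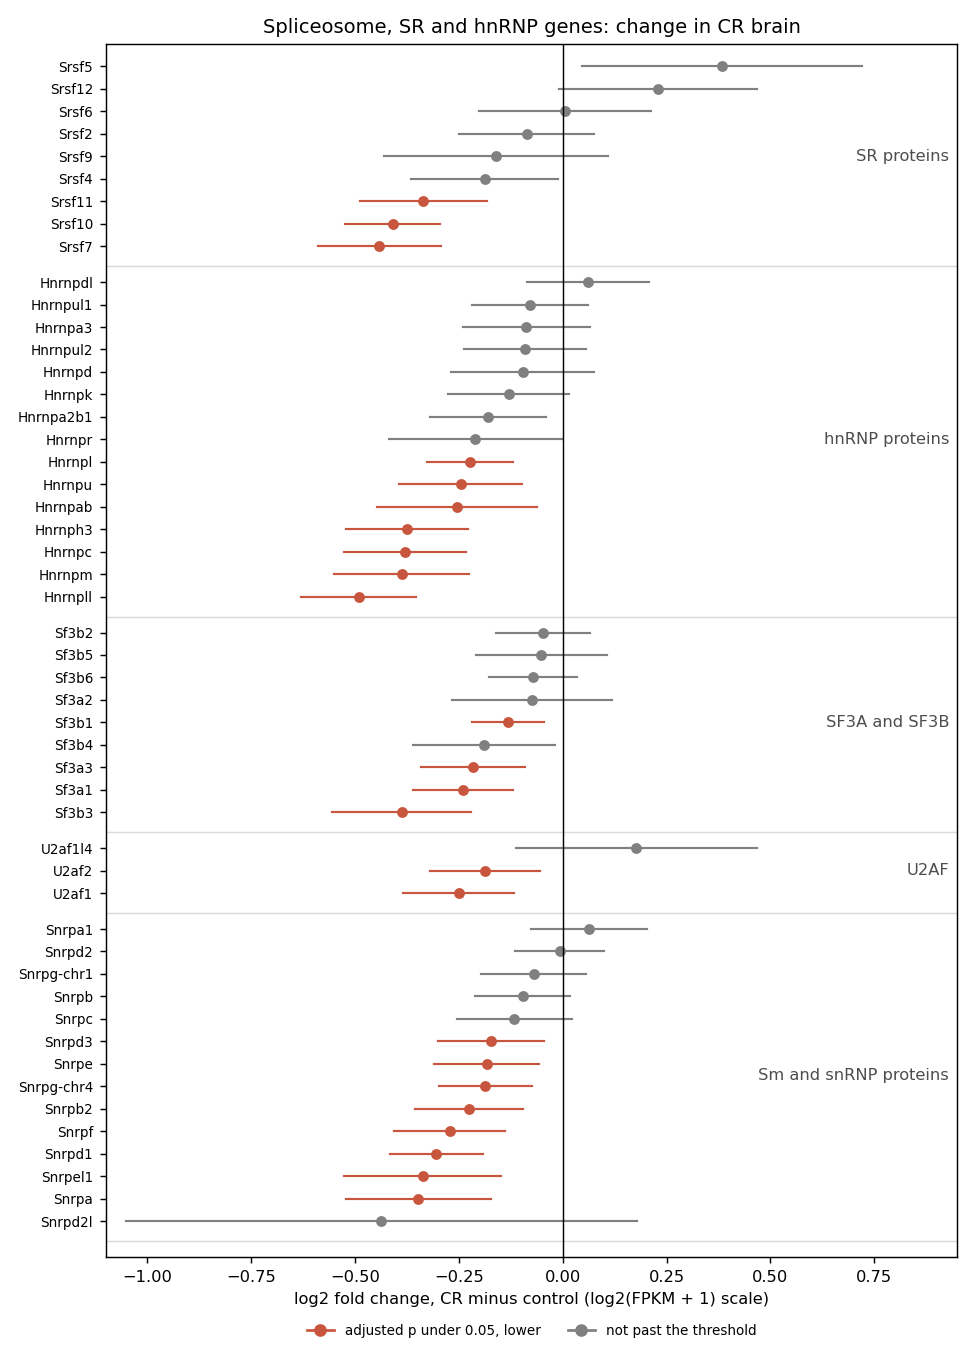
Log2 fold change of each of the 50 genes, CR minus control on the log2(FPKM + 1) scale (x axis), grouped by class (y axis); points are limma estimates, bars their 95% confidence intervals, and red marks an adjusted p under 0.05. All 24 red points lie left of 0, and the point farthest right is Srsf5 at 0.38.

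The sequence around the start sites was described across the set. RefSeq promoter windows (assembly GRCr8, 250 bases before to 50 after the annotated start) matched 44 of the 49 distinct symbols. The letters CCGGAAG, the core that ETS-family factors recognise, occurred on either strand in 14 of the 44 windows (31.8%) and in 8.75% of all 33469 windows. They occurred in 8 of 21 windows of genes that were lower in CR (38.1%) and in 6 of 23 windows of the others (26.1%). CCAAT occurred on either strand in 22 of 44 windows (50%) against 37.5% of all, TATAAA in 5 (11.4%) against 14.2%, and AAGATGGCG, a YY1-type sequence, in 1 (2.27%) against 1.73%. The windows were rich in G and C, with a median of 60.7% against 51.7% over all windows. Those of Hnrnpk (35.7%) and Hnrnph3 (38.3%) were not, and both count among the windows with CCAAT. Whether each annotated start lies at a promoter was not tested. The shares over all windows were not matched to the set by G and C content or by expression, and no difference in share was tested. The first sequence below belongs to the SR gene with the largest decrease and the second to the SR gene with the highest value relative to control, and both hold CCGGAAG. The third has that motif on both strands in overlap, the fourth is the window with AAGATGGCG, and the fifth holds CCAAT at 5 places. Capitals mark these motifs on either strand, so that CTTCCGG, CGCCATCTT and ATTGG are their reverse complements. A match is a description of the letters only.
Srsf7 (GRCr8 chr6:20563802-20564101, plus strand): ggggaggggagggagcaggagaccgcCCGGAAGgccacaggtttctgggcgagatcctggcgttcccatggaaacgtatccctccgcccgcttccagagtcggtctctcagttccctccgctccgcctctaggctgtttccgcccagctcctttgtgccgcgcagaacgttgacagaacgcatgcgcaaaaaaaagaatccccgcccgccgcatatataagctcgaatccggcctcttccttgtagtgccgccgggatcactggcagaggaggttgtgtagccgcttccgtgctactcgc
Srsf5 (GRCr8 chr6:106336506-106336805, plus strand): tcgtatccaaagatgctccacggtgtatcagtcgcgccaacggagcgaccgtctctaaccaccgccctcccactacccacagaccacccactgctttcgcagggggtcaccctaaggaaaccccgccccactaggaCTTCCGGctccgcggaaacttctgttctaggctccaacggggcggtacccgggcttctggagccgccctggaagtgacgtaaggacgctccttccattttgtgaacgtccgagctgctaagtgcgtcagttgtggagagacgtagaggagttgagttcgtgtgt
Snrpe (GRCr8 chr13:47609202-47609501, minus strand): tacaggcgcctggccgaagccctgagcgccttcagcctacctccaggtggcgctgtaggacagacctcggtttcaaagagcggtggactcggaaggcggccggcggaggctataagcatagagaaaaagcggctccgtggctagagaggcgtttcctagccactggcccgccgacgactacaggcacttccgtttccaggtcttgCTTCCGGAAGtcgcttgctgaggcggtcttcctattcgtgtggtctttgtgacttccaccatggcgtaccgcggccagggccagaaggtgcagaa
Sf3a1 (GRCr8 chr14:83254721-83255020, plus strand): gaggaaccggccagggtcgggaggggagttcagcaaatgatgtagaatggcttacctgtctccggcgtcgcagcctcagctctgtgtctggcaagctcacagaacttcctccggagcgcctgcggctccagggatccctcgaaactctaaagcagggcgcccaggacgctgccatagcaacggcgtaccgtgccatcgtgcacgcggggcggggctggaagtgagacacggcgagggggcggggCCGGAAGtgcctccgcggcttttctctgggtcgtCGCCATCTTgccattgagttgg
Hnrnpc (GRCr8 chr15:27282666-27282965, minus strand): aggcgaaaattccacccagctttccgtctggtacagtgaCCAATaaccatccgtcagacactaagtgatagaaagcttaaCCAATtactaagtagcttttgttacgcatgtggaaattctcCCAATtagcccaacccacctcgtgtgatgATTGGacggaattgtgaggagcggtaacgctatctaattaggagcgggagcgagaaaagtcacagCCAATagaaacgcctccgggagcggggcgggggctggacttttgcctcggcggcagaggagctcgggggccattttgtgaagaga

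Among the 9 SR protein genes, 3 were lower in CR (33.3%, against 16.2% over all genes tested), 0 were higher and 6 did not pass. Their median log2 fold change was -0.16, and no test over a class was run. Srsf7, whose protein carries a zinc knuckle beside its RNA-recognition motif, measured 101, 91.9 and 109 FPKM in the control libraries (replicates 1, 2 and 3, the order used throughout) and 74.2, 74.4 and 72.4 FPKM in the CR libraries. The groups did not overlap, and the CR libraries lay close together (log2 fold change -0.44, SE 0.0633, limma adjusted p = 0.00249). Srsf7 (ENSRNOG00000027360) lies on chromosome 6 of mRatBN7.2 from 14811808 to 14818965. Srsf10, an SR-like protein that acts as a repressor once dephosphorylated, was at 33.0, 32.4 and 34.5 FPKM in control and at 25.4, 23.9 and 25.1 in CR (-0.41, SE 0.0493, adjusted p = 0.00145). Srsf11, an SR-related splicing factor, was at 77.2, 69.0 and 78.1 FPKM in control and at 55.7, 58.5 and 62.8 in CR (-0.34, adjusted p = 0.00767). All 3 of these genes had every CR value below every control value.

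The most abundant of the 9 SR genes did not follow them. Srsf3, abundant too but left out of the set by name, was lower (-0.41, limma adjusted p = 0.00132). Srsf5, which encodes an SR protein with a pair of RNA-recognition motifs, stood at 244, 244 and 165 FPKM in control and at 264, 283 and 293 FPKM in CR. Its CR values all exceeded its control values, and control replicate 3 lay far below the other libraries. The log2 fold change was 0.38 (SE 0.145), which did not pass in limma (adjusted p = 0.0781); it was 0.19 without control replicate 3 (adjusted p = 0.0366), and limma-voom on the reads gave 0.38 (adjusted p = 0.0324). Srsf2, which binds exonic enhancers through its single RNA-recognition motif, was at 282, 268 and 236 FPKM in control and at 238, 253 and 248 in CR, and its groups overlapped (adjusted p = 0.369). Srsf12, a relative of Srsf10, was at 9.58, 8.58 and 10.5 FPKM in control and 9.88, 12.4 and 11.95 in CR (0.23, adjusted p = 0.121), and passed without CR replicate 1 (0.32, adjusted p = 0.0498). Srsf4, Srsf6 and Srsf9 had values of -0.19, 0.01 and -0.16 and did not pass; Srsf4 passed by limma-voom (adjusted p = 0.0220) and Srsf9 without control replicate 2 (adjusted p = 0.0453).

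The summed level of these 9 SR genes overlapped between the groups, at 696 to 823 FPKM in control libraries and 730.1 to 779 FPKM in CR libraries. Srsf1 and Srsf3, left out by name, are not in this sum. Their means were 96.6 and 205 FPKM in control and 75.7 and 155 FPKM in CR. Within the sum, the shares of Srsf6, Srsf9 and Srsf12 overlapped between the groups and those of the other 6 genes did not. Srsf5 made up 29.7%, 31.4% and 23.7% of the summed FPKM of the 9 genes in control and 36.2%, 36.6% and 37.5% in CR. Srsf7 made up 12.3%, 11.8% and 15.6% in control and 10.2%, 9.64% and 9.29% in CR. The share of Srsf2 was 33.9% to 34.5% in control and 31.8% to 32.8% in CR.

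**Figure D2:**
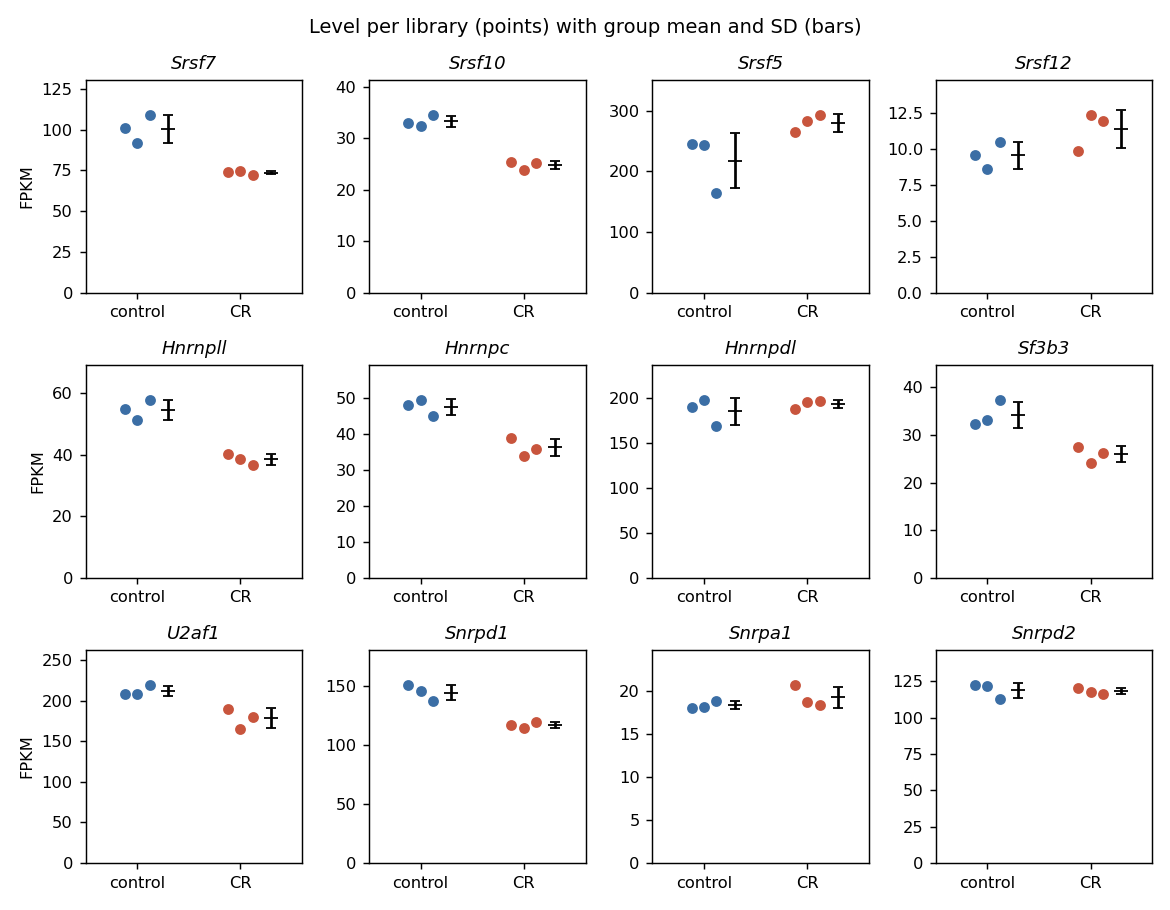
FPKM (y axis, from 0) in each library for 12 genes; points are libraries in replicate order, and the bars give the mean and SD of each group of 3. In Srsf7, Srsf10, Hnrnpll, Hnrnpc, Sf3b3, U2af1 and Snrpd1 every CR point lies below every control point, in Srsf5 every CR point lies above, and in Srsf12, Hnrnpdl, Snrpa1 and Snrpd2 the groups overlap.

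Of the 15 hnRNP genes, 7 were lower in CR (46.7%, against 16.2% over all genes tested), 0 were higher and 8 did not pass. Their median log2 fold change was -0.21. Hnrnpll, whose protein is a relative of hnRNP L known from lymphocyte splicing switches, was at 55.0, 51.3 and 57.7 FPKM in control and at 40.3, 38.7 and 36.7 in CR. It had the largest decrease of all 50 genes among those that passed, with no overlap between the groups (-0.49, SE 0.0593, adjusted p = 0.00148), and its level fell by 29.4%. Hnrnpll (ENSRNOG00000006929) lies on chromosome 6 from 14970057 to 14999745, 151091 bases from Srsf7, and both tested genes between them did not pass.

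Hnrnpm, Hnrnpc and Hnrnph3 followed with decreases of similar size. Hnrnpm, which binds GU-rich RNA, was at 69.6, 71.6 and 66.0 FPKM in control and 56.2, 47.4 and 54.4 in CR (-0.39, adjusted p = 0.00558). Hnrnpc, which binds uridine tracts and competes with U2AF at them, was at 48.0, 49.3 and 44.9 FPKM in control and 38.9, 34.0 and 35.8 in CR (-0.38, adjusted p = 0.00417). Hnrnph3, of the G-tract-binding H and F family, was at 39.7, 35.6 and 38.6 FPKM in control and 30.9, 27.4 and 28.8 in CR (-0.38, adjusted p = 0.00445). None of the 3 overlapped between the groups.

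The abundant hnRNP genes of the set had smaller values. Hnrnpa1 and Hnrnph1, left out of the set by name, averaged 1071 and 339 FPKM in control and were lower (-0.32 and -0.31). Hnrnpab, which is highly expressed in embryonic brain, was at 452, 417 and 359 FPKM in control and at 353, 329 and 342 in CR (-0.25, adjusted p = 0.0481). Its control values spread widely and control replicate 3 was close to the CR range. The Hnrnpab call was lost when any 1 library other than control replicate 3 was left out (adjusted p from 0.0772 without CR replicate 1 to 0.148 without CR replicate 2). It was also lost with the low-value filter removed (0.103). Hnrnpa2b1, which also carries RNA along dendrites, was at 358, 367 and 338 FPKM in control and at 336, 304 and 299 in CR; the groups did not overlap, but limma gave an adjusted p of 0.0536 (-0.18). Hnrnpa2b1 passed by limma-voom (adjusted p = 0.0258), with a filter at 2 FPKM (0.0453), without control replicate 3 (0.0411) and without CR replicate 1 (0.0254). Hnrnpu, a chromatin-bound scaffold protein gene, and Hnrnpl, which binds CA repeats, were lower as well (-0.25 and -0.22, adjusted p = 0.0218 and 0.0080). The Hnrnpu call was lost without control replicate 1 (0.0636), control replicate 2 (0.0649) or CR replicate 2 (0.0816). Hnrnpdl, whose protein is a relative of AUF1, was at 190.5, 198 and 169 FPKM in control and at 188, 195 and 197 in CR, and it was the 1 hnRNP gene with a positive value (0.06, adjusted p = 0.490). The remaining 6 genes that did not pass, Hnrnpr, Hnrnpk, Hnrnpd, Hnrnpul2, Hnrnpa3 and Hnrnpul1, had values between -0.21 and -0.08, and Hnrnpr passed without control replicate 3 (-0.29, adjusted p = 0.0333). The hnRNP genes summed to 2246 to 2499 FPKM in control libraries and 2045 to 2228 FPKM in CR libraries, with control replicate 3 lowest of its group.

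U2AF and the SF3 complexes mark the 3' end of the intron and the branch point. U2af1, the small U2AF subunit that reads the AG at the 3' splice site, was at 209.0, 209.0 and 219 FPKM in control and at 189.8, 166 and 180.4 in CR (-0.25, SE 0.0577, adjusted p = 0.0141). U2af2, the large subunit that binds the polypyrimidine tract, was at 39.7, 37.0 and 37.2 FPKM in control and 34.3, 31.1 and 34.3 in CR (-0.19, adjusted p = 0.0382). Both genes were lower in every CR library than in any control library, but the U2af2 call was lost without each single library in turn (adjusted p from 0.0501 without control replicate 3 to 0.123 without CR replicate 2) and with no filter (0.0562). U2af1l4, a short relative of U2af1, rested on 11 to 31 reads per library, shares exon bases with Psenen on the opposite strand and Igflr1 on the same strand, and did not pass (0.18, adjusted p = 0.307).

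Of the 9 SF3A and SF3B genes, 4 were lower (44.4%, against 16.2% over all genes tested) and 5 did not pass. All 9 had a negative log2 fold change (median -0.13). Sf3b3, a large scaffold subunit of SF3B, was at 32.4, 33.1 and 37.3 FPKM in control and 27.5, 24.1 and 26.2 in CR (-0.39, SE 0.0720, adjusted p = 0.00626). Sf3a1 was at 22.5, 23.9 and 24.6 FPKM in control and 20.01, 19.9 and 19.7 in CR (-0.24, adjusted p = 0.0113). Sf3b1, the subunit that clamps the branch helix, was at 99.3, 101 and 101 FPKM in control and 91.2, 91.8 and 91.9 in CR (-0.13, adjusted p = 0.0291). Its level fell by 8.84%, which exceeded the spread within either group, but the Sf3b1 call was lost without 5 of the 6 libraries in turn (adjusted p 0.0523 to 0.0879), all but control replicate 3, and with the replicate number as a block (0.0731). Sf3a3 was lower too (-0.22, adjusted p = 0.0192), though not without CR replicate 1 (0.0554) or CR replicate 3 (0.0704); with either left out, 2 of the 9 genes passed. Sf3b6, which contacts the branch-point adenosine, was at 88.0, 89.8 and 89.9 FPKM in control and 88.2, 85.6 and 81.1 in CR, with overlapping groups (adjusted p = 0.256). Sf3b2, Sf3b5 and Sf3a2 had values from -0.07 to -0.05 and did not pass, and Sf3b4 (-0.19, adjusted p = 0.0823) passed by limma-voom alone (0.0492).

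Of the 14 Snrp genes, 8 were lower (57.1%, against 16.2% over all genes tested), 0 were higher and 6 did not pass. Their median log2 fold change was -0.18. Snrpd1, a core Sm protein gene, was at 151, 146 and 138 FPKM in control and 117, 114 and 119.9 in CR (-0.30, SE 0.0478, adjusted p = 0.00341). Snrpf, another Sm gene, was at 177, 188 and 181 FPKM in control and 154, 158 and 139.7 in CR (-0.27, adjusted p = 0.00995). Snrpa, which encodes the A protein of the U1 snRNP, was at 30.3, 34.5 and 28.8 FPKM in control and 25.1, 22.8 and 24.9 in CR (-0.35, adjusted p = 0.0112). These 3 genes had no overlap between groups.

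The most abundant members of this class were Snrpg and Snrpe, both of the Sm ring. Snrpg on chromosome 4 was the highest of all 50 genes, at 497, 513 and 509 FPKM in control and 458, 424 and 452 in CR (-0.19, adjusted p = 0.0213). Its call was lost without control replicate 2 (0.0597), CR replicate 2 (0.0883) or CR replicate 3 (0.0548). Snrpe was at 263, 258 and 247 FPKM in control and 240.0, 222 and 214 in CR (-0.18, adjusted p = 0.0353), a call lost without control replicate 1 (0.0943), control replicate 2 (0.0866), CR replicate 2 (0.113) or CR replicate 3 (0.122) and with no filter (0.0652). Snrpb2, which encodes the B'' protein of the U2 snRNP, was lower (-0.23, adjusted p = 0.0187), but not without control replicate 1 (0.0508), CR replicate 2 (0.0724) or CR replicate 3 (0.0707). Snrpd3 was lower with an adjusted p of 0.0453 (-0.17), a call lost without every library but control replicate 3 (0.0534 to 0.138), with median-ratio size factors (0.0586), with no filter (0.0698) and with the replicate block (0.0586). For the class as a whole, 5 genes passed without control replicate 1, 4 without control replicate 2, and 3 without CR replicate 2 or CR replicate 3.

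Not every Snrp gene followed. Snrpd2, also a core Sm protein gene, was at 122, 122 and 113 FPKM in control and 121, 118 and 117 in CR, a log2 fold change of -0.01 (95% confidence interval -0.11 to 0.10, adjusted p = 0.924). Snrpa1, the A' protein of the U2 snRNP, was at 18.1, 18.2 and 18.9 FPKM in control and 20.6, 18.8 and 18.4 in CR (0.06, adjusted p = 0.446). Snrpb and Snrpc had every CR value below every control value but did not pass (-0.10 and -0.12, adjusted p = 0.168 and 0.169).

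Snrpel1, Snrpd2l and the Snrpg row on chromosome 1 each form a single exon block, unlike the genes they are named after, and near-identical copies can share reads, so their values are uncertain. Snrpel1 was lower (-0.34, adjusted p = 0.0167) at 43.8 to 63.0 FPKM, a call lost without control replicate 2 (0.0504), CR replicate 2 (0.0626) or CR replicate 3 (0.0520). The row named Snrpg on chromosome 1 stood at 123 to 139 FPKM and did not pass (-0.07, adjusted p = 0.351). Snrpd2l had 10 to 20 reads per library and did not pass (-0.44, adjusted p = 0.237), except with the replicate block (0.0449). Without the 3 single-block rows and the 12 genes that share exon bases with another gene, 15 of 35 genes were lower and 0 were higher. That is 42.9% lower, against 16.2% over all genes tested.

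**Figure D3:**
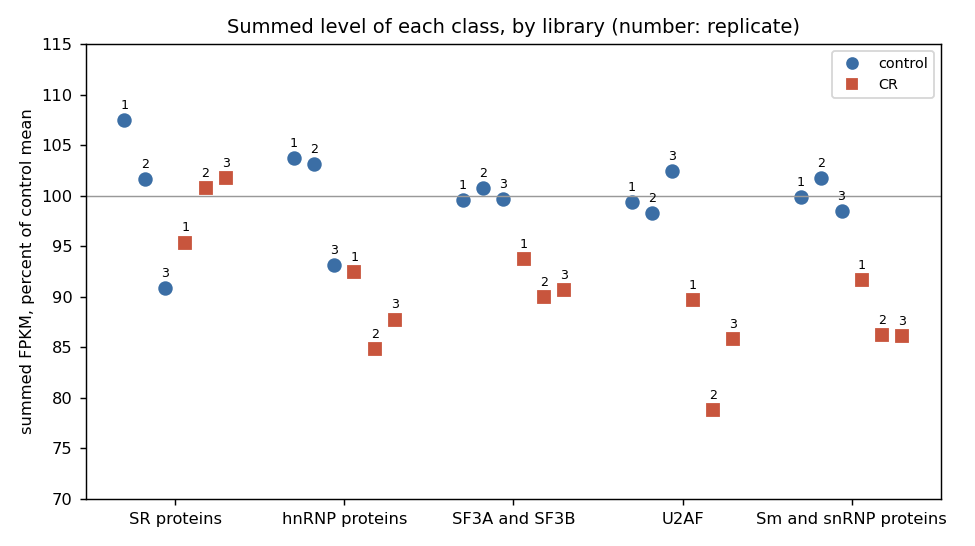
Summed FPKM of each class in each library as a percent of the control mean (y axis, which does not start at 0), with the replicate number above each point. In the SF3, U2AF, Snrp and hnRNP classes all CR points lie below all control points, though CR replicate 1 and control replicate 3 nearly meet for hnRNP, and in the SR class the groups overlap. Genes left out by name, such as Srsf1 and Srsf3, are not in the sums.

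Summed over the class, the SF3 genes stood at 483 to 489 FPKM in control libraries and 436 to 455 FPKM in CR libraries, and the Snrp genes at 1721 to 1779 and 1506 to 1602 FPKM. The 3 U2AF genes stood at 247 to 257 FPKM in control libraries and 198 to 225 FPKM in CR libraries. These 3 classes differed by -8.55%, -12.02% and -15.2% of the control mean, the hnRNP class by -11.7% and the SR class by -0.711%. The SR, hnRNP and Snrp sums lack the genes left out by name, so they are not totals of those families. All 50 genes together summed to 5404 to 5801 FPKM in control libraries and 4958 to 5241 FPKM in CR libraries.

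Ratios between related genes within a library describe how relatives differed from each other, free of depth. For 9 pairs the log2 ratio was compared between the groups with a two-sided exact permutation test, for which 3 against 3 libraries cannot go below p = 0.10. The pairs were chosen with the values known, so the differences are descriptions only. Srsf7 and Srsf5 are the SR genes with the largest decrease and the highest value relative to control. A large difference between them was therefore fixed by the choice. The ratio of Srsf7 to Srsf5 was -1.27, -1.41 and -0.60 on the log2 scale in control and -1.83, -1.93 and -2.02 in CR, a difference of -0.83. For Srsf10 over Srsf12 it was 1.78, 1.92 and 1.71 in control and 1.36, 0.95 and 1.07 in CR, a difference of -0.68. Hnrnpl over Hnrnpll was 1.86, 1.96 and 1.76 in control and 2.14, 2.09 and 2.19 in CR, a difference of 0.28 in the opposite direction. These 3 pairs, together with Srsf4 over Srsf6, Hnrnpa2b1 over Hnrnpa3 and U2af1 over U2af1l4, did not overlap between the groups (exact permutation p = 0.10 each, 0.15 after Benjamini-Hochberg adjustment over the 9 pairs). Because p cannot go lower here, no pair could have passed, and the test does not decide whether a ratio differed. Hnrnpul1 over Hnrnpul2 differed by 0.01 (exact permutation p = 0.90). The neighbours Hnrnpd and Hnrnpdl, 52972 bases apart on chromosome 14 with no annotated gene between them, had overlapping ratios (difference -0.16, exact permutation p = 0.20), as did Snrpa over Snrpb2 (-0.13, exact permutation p = 0.30).

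**Figure D4:**
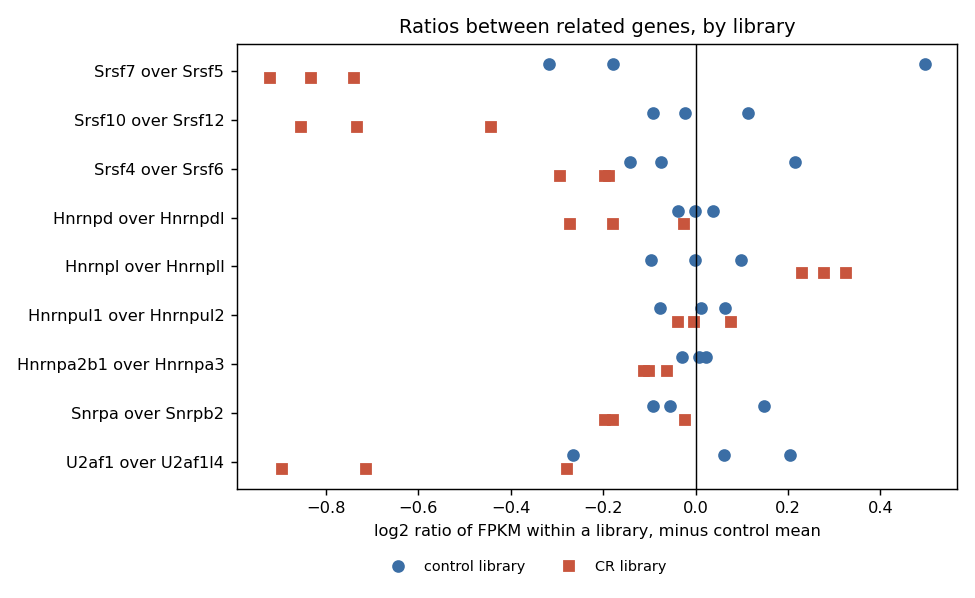
Log2 ratio of FPKM between 2 related genes in each library, with the control mean of that ratio subtracted (x axis), for 9 pairs (y axis); circles are control and squares CR libraries. The squares lie apart from the circles in 6 pairs, farthest for Srsf7 over Srsf5 and on the right for Hnrnpl over Hnrnpll.

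Other splicing genes, in 6 lists with 139 tested genes, gave 54 lower, 4 higher and 81 that did not pass. Over all genes tested 16.2% were lower and 17.7% higher, the shares to set beside each list below. The lists hold 5 of the genes left out of the set by name, and without these 5 the counts were 50 lower and 4 higher of 134. Without CR replicate 2 the lower count was 35. The number of higher genes was 2 without control replicate 2 or without any 1 of the CR libraries. The list of SR-related proteins and SR protein kinases, which also holds Srsf1 and Srsf3, had 17 of 28 tested genes lower and 0 higher in limma (median -0.22), against 16.2% lower over all genes; 1 was higher at an unadjusted p under 0.05 and 0 by limma-voom. Without Srsf1 and Srsf3, 15 of 26 were lower (median -0.20). Clk1, a kinase that phosphorylates SR proteins and frees them from nuclear speckles, was at 114, 95.5 and 147 FPKM in control and at 73.9, 65.5 and 65.0 in CR (-0.77, SE 0.142, adjusted p = 0.00603). Clk4, a close relative, was at 23.3, 21.4 and 31.5 FPKM in control and 15.4, 16.4 and 16.6 in CR (-0.61, adjusted p = 0.0104). Control replicate 3 was the highest library for both kinases and the lowest for Srsf5.

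In the list of hnRNP-related proteins, which also holds Hnrnpf, Hnrnpa1 and Hnrnph1, 11 of 23 were lower and 1, Ralyl, was higher (median -0.19). Without those 3 genes, 9 of 20 were lower and 1 was higher (median -0.17). Over all 23, 7 were lower without CR replicate 2, and 2 were higher by limma-voom and without control replicate 1, Ralyl and Pcbp3. Fubp1, which binds single-stranded DNA and U-rich RNA, fell from 46.7 ± 2.49 to 30.0 ± 2.27 FPKM (mean ± SD, n = 3; -0.62, limma adjusted p = 0.00108), and Tardbp, which encodes TDP-43, fell from 133 ± 9.56 to 90.1 ± 5.55 FPKM (-0.56, limma adjusted p = 0.00145). The list of NTC proteins, helicases and step factors, which remodel the spliceosome for catalysis, had 15 of 39 lower and 1, Zrsr1, higher (median -0.17). Without CR replicate 2 it had 8 lower and without CR replicate 3 it had 10, and 0 were higher without any 1 library other than control replicate 3. Its largest decreases were in Prpf39 (38.9 ± 7.51 and 26.7 ± 1.49 FPKM, limma adjusted p = 0.0167, and 0.0552 without CR replicate 1) and Prpf18 (11.3 ± 0.888 and 7.93 ± 0.152 FPKM, limma adjusted p = 0.00337).

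Of 23 further snRNP proteins, 7 were lower (30.4%, against 16.2% over all genes tested) and 0 higher in limma (median -0.15). At an unadjusted p under 0.05, 1 was higher, and 1 by limma-voom. The lower count was 2 without CR replicate 3, 3 without CR replicate 2 and 4 without CR replicate 1. They included Rnpc3 of the minor spliceosome (13.1 ± 0.941 and 9.18 ± 0.694 FPKM, limma adjusted p = 0.00415) and Prpf3 of the tri-snRNP (21.7 ± 2.57 and 17.0 ± 0.274 FPKM, limma adjusted p = 0.0195). The Prpf3 call was lost without CR replicate 1 (0.0574), CR replicate 2 (0.0639) or CR replicate 3 (0.0543). The snRNP assembly and import list had 4 of 16 lower (25%, nearer that background) and 0 higher in limma (median -0.06). At an unadjusted p under 0.05, 1 was higher, and 0 by limma-voom. Besides Snupn and Ncbp1, the lower genes were the cap hypermethylase gene Tgs1 (15.9 ± 0.279 and 11.8 ± 0.570 FPKM, limma adjusted p = 0.00258) and Smn1, the core of the SMN complex that loads Sm rings (18.8 ± 0.736 and 14.9 ± 0.887 FPKM, limma adjusted p = 0.00793).

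The LSm proteins form Sm-like rings on U6 RNA and in mRNA decay. In this list 0 of 10 genes were lower in limma and by limma-voom, and 2 were higher (median 0.02). At an unadjusted p under 0.05, 1 was lower. Over all genes tested 16.2% were lower and 17.7% higher, so in a list of 10 these counts lie near the background. Without control replicate 3, Lsm7 and Lsm8 passed as lower (limma adjusted p = 0.0396 and 0.0292), and without control replicate 2 or any 1 CR library Lsm11 alone was higher. Lsm11, a subunit of the U7 snRNP that matures histone mRNA, rose from 10.04 ± 1.31 to 13.6 ± 0.442 FPKM (0.41, limma adjusted p = 0.0118). Lsm4 rose from 80.5 ± 5.003 to 92.3 ± 2.40 FPKM (0.20, limma adjusted p = 0.0283), a call lost without control replicate 2 (0.0537) or any 1 CR replicate (0.0653 to 0.0868). Of the 6 genes left out of the set by name, Srsf1, Srsf3, Hnrnpa1 and Hnrnph1 were lower (-0.35, -0.41, -0.32 and -0.31; all 4 are among the 54 counted above), Hnrnpf did not pass (-0.18, limma adjusted p = 0.0544) and Snrpn, an imprinted neuronal Sm gene, was higher (0.35, limma adjusted p = 0.00331).

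**Figure D5:**
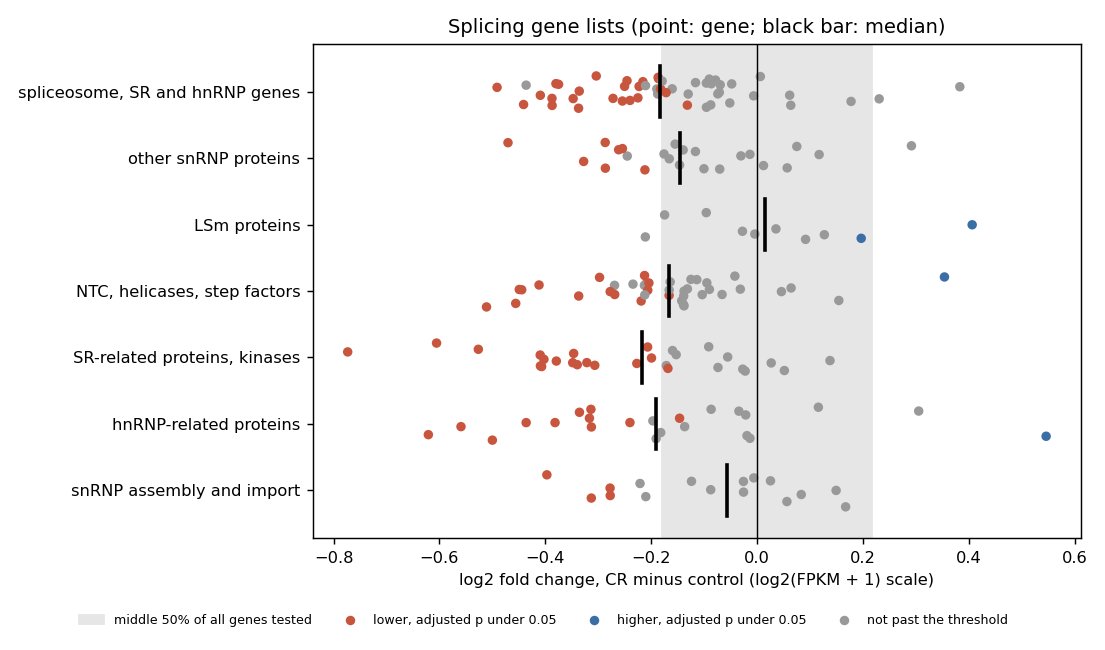
Log2 fold change, CR minus control (x axis), of each tested gene in the set described here and in the 6 lists of other splicing genes (y axis); black bars are medians and the grey band is the middle 50% of all genes tested. The median lies left of 0 in every row but that of the LSm proteins, and the farthest point to the left is Clk1 at -0.77.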

How the data were processed

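Polyadenylated RNA of 6 brain libraries (3 control, 3 CR), prepared with a stranded QIAseq kit per the labels' protocols, was given as 1 table per library. The deposited values were FPKM, made by the authors; per the submitters' processing notes reads were handled with featureCounts 2.0.1, STAR 2.7.10a, cutadapt 1.16, Trim Galore 0.4.4 and Trimmomatic 0.36 on mRatBN7.2, listed in no order. Whether strand was used in counting is not stated, so the 12 genes that share exon bases with another gene are uncertain. In the deposited files 100% of FPKM times exon length were whole multiples (within 0.05) of the worth of 1 read, which gave the reads per gene and the depth. Replicates differed by more than counting noise (mean chi-square per gene 6.63 to 15.6).

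The 15247 genes averaging 0.5 FPKM or more were tested with limma 3.58.1 in R 4.3.3 on log2(FPKM + 1), with group as the only term and a trend on the mean, two-sided, with Benjamini-Hochberg adjustment over all genes tested. Log2 fold changes are on that scale, which understates those of low genes. Simulated FPKM for 15247 genes, with 50 genes at each size, gave calls for 2% at 1.25-fold, 40% at 1.5-fold, 78% at 2-fold and 94% at 4-fold; unchanged genes made up 10 of 117 calls. The symbols, lists and pairs were chosen with earlier results of these data known. Named genes were up to 12 past the threshold in each direction by log2 fold change, those near the FPKM limit, the 2 most abundant of each class and 2 of each list by size of change among those past the threshold; other members are named because the set is described whole. Alternatives were median-ratio size factors, a pseudocount of 0.1, no filter, a mean of at least 2 FPKM, limma-voom on the reads, the replicate number as a block, and leaving out each library. Protein sequences and 1 further planned promoter motif were not analysed here.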

Additional observations from a re-analysis of the deposited data

How the results depend on the processing

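With each library left out in turn, the count of genes past the threshold over all genes was 3243 (without CR replicate 2) to 5037 (without control replicate 3), against 5173, and the count of lower splicing genes was 15 to 25, against 24. Under the other 6 alternatives these counts were 4445 to 5779 and 20 to 27. The cause of these losses was not tested beyond the smaller number of libraries. Higher splicing genes numbered 1 with limma-voom and 0 to 1 with a library left out. Leaving out a library gave 2 to 4 lower SF3A and SF3B genes, 3 to 8 lower Snrp genes and 1 lower U2AF gene each time; U2AF also gave 1 with no filter. For the lists of other splicing genes the lower count was 35 to 58 and the higher count 2 to 5 with a library left out. No gene of the set reversed direction with a call. Deviations of same-numbered libraries correlated only weakly (0.0245, 0.0198 and 0.0454). These values were still above those of differently numbered libraries (-0.0428 to 0.0165), and whether the numbers pair the libraries is not stated. With the replicate block 4445 genes and 23 lower splicing genes passed. Median-ratio size factors moved the median of all genes from 0.01 to 0.002 on the log2 scale. Changes under about 1.5-fold, the size of the 24 called decreases in the set, were mostly missed in simulated data. Far fewer genes changed there than the 33.9% past the threshold here. The simulation therefore does not give the share missed in these libraries. Floors and depth cover counting error only.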
